A study of Mus musculus with 8 samples.

Results

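The genes of the forkhead transcription factors were followed through the reprogramming of mouse embryonic fibroblasts (MEFs) to induced pluripotent stem cells (iPSCs). Members were the rows of the gene table whose symbol was Fox, a subfamily letter from a to s and a number, with or without a further letter. This gave 32 genes in 15 subfamilies, of 17922 rows in all. The rule used names and no measured value. Another 12 coding genes of this name pattern in the reference annotation (Foxb1, Foxb2, Foxd4, Foxe1, Foxi1, Foxi2, Foxi3, Foxl1, Foxl2, Foxn4, Foxr1 and Foxr2) are not analysed here.

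Forkhead proteins share a DNA-binding domain of the winged-helix type and are named by letter for the similarity of that domain. Some open closed chromatin in the embryo and fix lineages, such as the FOXA factors of endoderm. Others act in most cells, such as the FOXO factors, which AKT keeps out of the nucleus when growth factors are present, FOXM1, which drives the genes of G2 and mitosis, and the FOXK factors, which set metabolic genes. FOXH1 and FOXD3 are known from the early embryo and from pluripotent stem cells, and FOXC, FOXF and FOXS1 from mesenchyme and the cells around vessels.

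All cells were of strain C57BL/6, per the labels. MEFs came from tetO-OSKM mouse fetuses of embryonic day 13.5 and carried doxycycline-inducible Pou5f1, Sox2, Klf4 and Myc (OSKM) from the start. Cells at day 3 and day 6 were such MEFs under doxycycline at 2 ug/ml. Their medium held serum replacement, LIF and 3 uM of CHIR99021, which inhibits GSK3. The iPSCs are labelled as fully reprogrammed. The sources used here give neither the medium of the MEFs, the activator that drives tetO, the number of fetuses nor the number of iPSC lines. Each of the 4 stages had 1 long RNA sample, depleted of ribosomal RNA, and 1 value per gene, so no difference carries an error and none was tested. Each column is called a library here, and whether its values are a mean of several is not stated.

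Values are FPKM, that is fragments scaled to gene length and library size, and they can be compared between genes as levels per length. Differences are on the log2(FPKM + 1) scale, which understates those of low genes. The rule of size for calling a gene higher or lower asked for a difference of at least 1 on that scale and for at least 1 FPKM in the higher library. Where 4 values of a gene follow each other, they stand in the order MEFs, day 3, day 6, iPSCs. An FPKM is a share of its library, and in a culture of many cells fewer cells with a transcript and less transcript per cell cannot be told apart.

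The 12 fibroblast markers summed to 6872, 7520, 7502 and 79.7 FPKM, and the 12 pluripotent cell markers to 2.60, 6.38, 12.6 and 2099 FPKM. Of the induced factors, whose induced and resident copies share a row, Pou5f1 was at 0.226, 3.03, 8.56 and 740 FPKM and Sox2 at 0.411, 1.19, 2.03 and 88.7. Klf4 had 10.6, 13.7, 12.1 and 17.3 FPKM. Myc had 16.8, 21.2, 22.8 and 1.83 FPKM and was lowest in iPSCs. The table gives no read totals. The number of fragments relative to MEFs was roughly estimated from the steps between low values, taking each column as 1 library. The estimate was 0.646 for the day 3 library, 1.04 for day 6 and 1.05 for iPSCs. By it, low values were least precise at day 3. Among rows averaging 10 to 100 FPKM the robust SD of the log2 difference was 0.147 between day 3 and MEFs, 0.177 between day 6 and day 3, and 1.29 between iPSCs and MEFs.

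Of the 32 forkhead genes, 25 (78.1%) had a highest value of 1 FPKM or more, against 73.1% of all rows. The number of members at that level was 19, 19, 18 and 18 by stage. The 12 members at or above 1 FPKM in all 4 libraries were Foxj2, Foxj3, Foxk1, Foxk2, Foxm1, Foxn2, Foxn3, Foxo1, Foxo3, Foxo4, Foxp1 and Foxp4. A further 6 reached 1 FPKM in iPSCs and in no earlier library, and 7 reached it in MEFs but not in iPSCs.

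**Figure D1:**
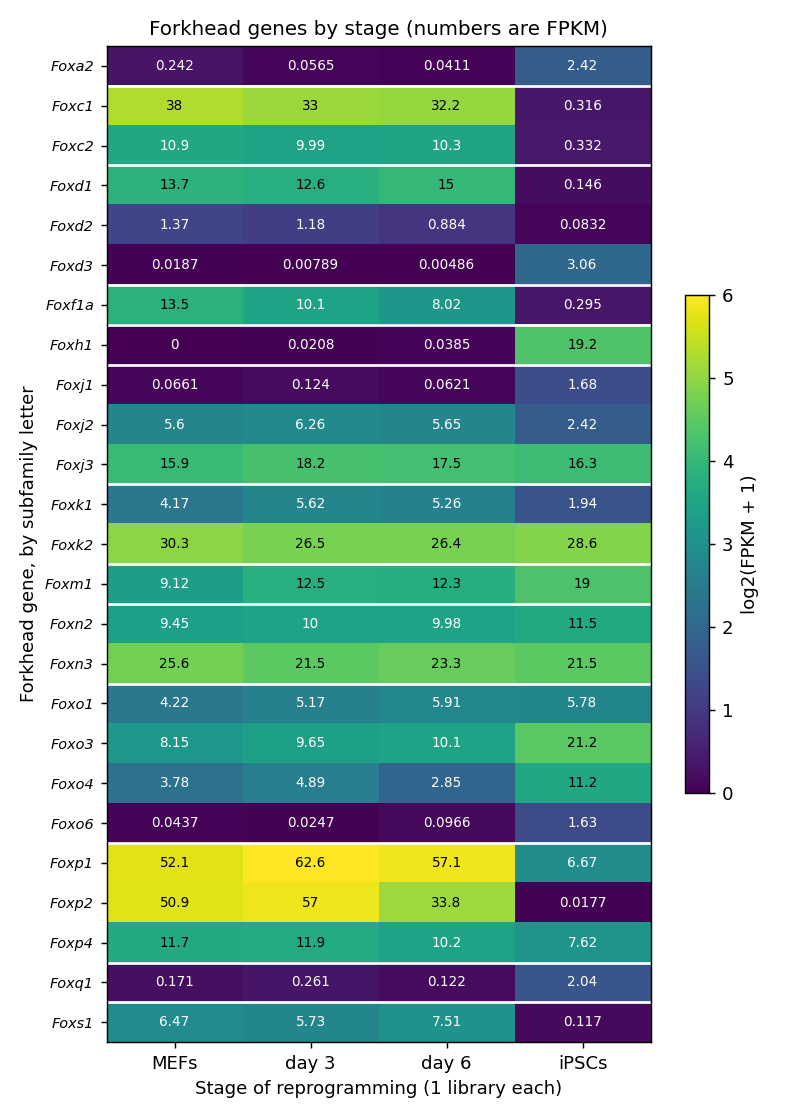
FPKM of the 25 forkhead genes with at least 1 FPKM in any library (rows, in order of subfamily letter, with white lines between subfamilies) in the MEF, day 3, day 6 and iPSC libraries (columns, 1 library each). Colour is log2(FPKM + 1) and the number in each cell is FPKM. The first 3 columns look alike, and the iPSC column differs from them mainly in the c, d, f, h, p and s genes.

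The summed FPKM of the family was lower in iPSCs, and its make-up was another. Most of the difference from MEFs lay in Foxp1, Foxp2 and Foxc1. These were at 52.1, 50.9 and 38.0 FPKM in MEFs and at 6.67, 0.0177 and 0.316 in iPSCs. The 32 rows summed to 317, 326, 296 and 186 FPKM by stage, and the sum stayed lower in iPSCs than in MEFs under each of the 3 rescalings of the columns that were tried. The Foxp genes made up the greatest part of that sum in the first 3 libraries, with 36.3%, 40.4% and 34.2%, and held 7.75% in iPSCs. In iPSCs the Foxo genes made up the greatest part, with 21.4%, against 5.11% in MEFs. The Foxc genes held 0.348% of the sum in iPSCs and 15.4% in MEFs. Foxh1 alone held 10.3% in iPSCs and was listed at 0 in MEFs. The Foxk, Foxn and Foxj genes kept similar sums at all stages, with 30.5, 33.1 and 20.4 FPKM in iPSCs against 34.5, 35.2 and 21.5 FPKM in MEFs.

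**Figure D2:**
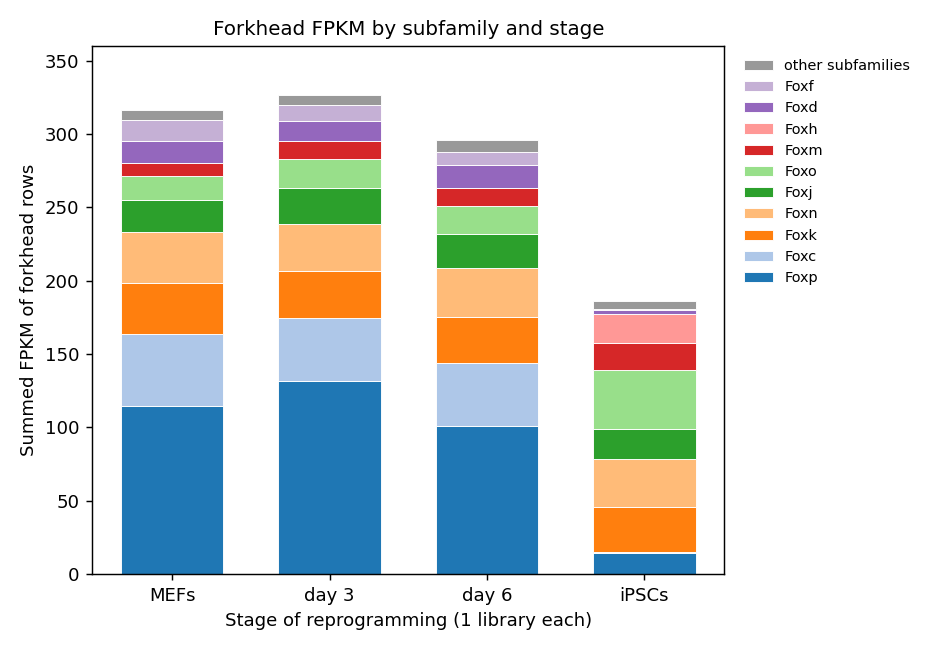
Summed FPKM of the forkhead rows by subfamily (stacked colours, from 0) in the MEF, day 3, day 6 and iPSC libraries, 1 library each. The Foxp block is 14.4 FPKM tall in iPSCs and 115 in MEFs, the Foxo block 39.8 in iPSCs and 16.2 in MEFs, and the Foxh block is seen only in the iPSC bar.

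The order of the genes differed between the ends of the series. In iPSCs the highest levels were those of Foxk2 (28.6 FPKM), Foxn3 (21.5), Foxo3 (21.2), Foxh1 (19.2) and Foxm1 (19.0). In MEFs they were those of Foxp1 (52.1 FPKM), Foxp2 (50.9), Foxc1 (38.0), Foxk2 (30.3) and Foxn3 (25.6). With 1 library a stage, neighbours in either order cannot be told apart.

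Between iPSCs and MEFs, 25 members were compared. Of these 8 (32.0%) were higher in iPSCs, where the background over all 12937 rows compared was 21.1%, and 8 (32.0%) were lower, where it was 25.0%. The median difference was -0.08 over the members and -0.05 over all rows compared, and both turned positive, to 0.10 and 0.13, when the columns were set to the same upper quartile. Of the 25, 6 passed the minimum level only through iPSCs and 7 only through MEFs, and these 13 make up most of both groups, so the counts describe the genes and support nothing further. The higher genes were Foxa2, Foxd3, Foxh1, Foxj1, Foxo3, Foxo4, Foxo6 and Foxq1, and the lower genes Foxc1, Foxc2, Foxd1, Foxd2, Foxf1a, Foxp1, Foxp2 and Foxs1. No member of the c, f, p or s subfamilies was among the higher and none of the a, h, j, o or q subfamilies among the lower, while the d subfamily had members on both sides. The h, q and s subfamilies hold 1 row each, and of a, f and j only Foxa2, Foxf1a and Foxj1 were called. These subfamilies could therefore not have called genes on both sides.

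**Figure D3:**
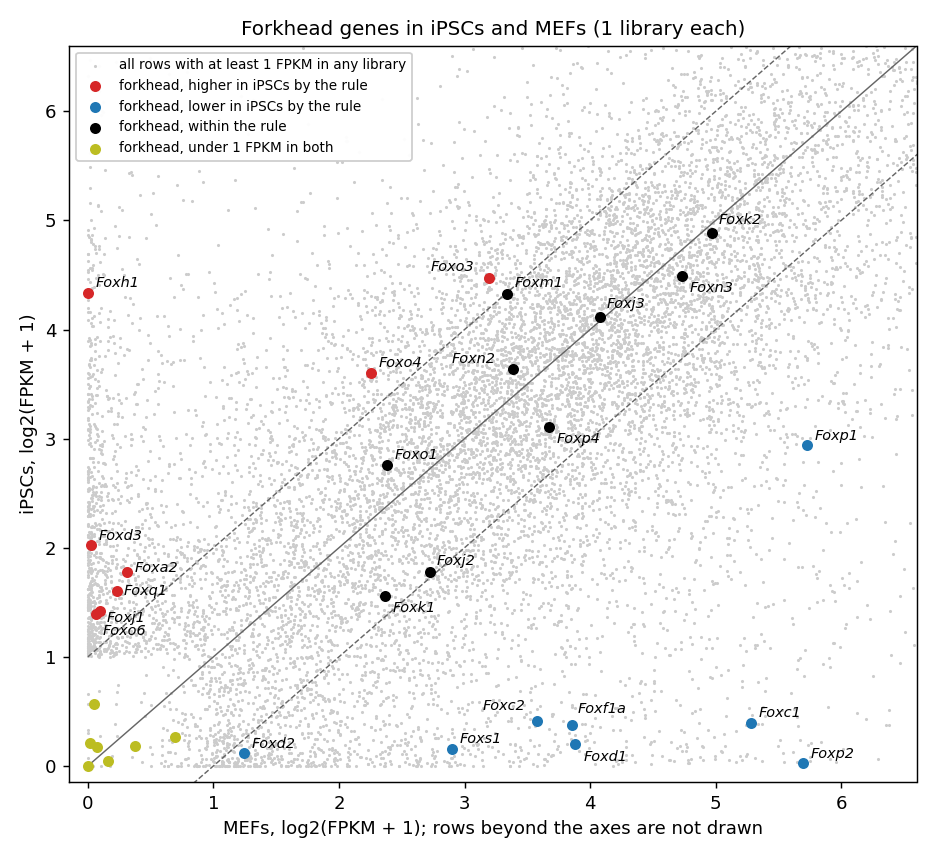
Level in the iPSC library (vertical) against the MEF library (horizontal), both as log2(FPKM + 1), 1 library each, for the forkhead genes (large points) over all rows with at least 1 FPKM in any library (grey). Dashed lines mark a log2 difference of 1. Red points (8 genes higher in iPSCs) lie mostly along the left edge near 0 in MEFs, and blue points (8 genes lower) mostly along the bottom edge near 0 in iPSCs, with Foxp1 above it.

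Of the lower genes, several are known from mesenchyme. Foxc1, needed for mesenchyme of the eye, skull and heart, was at 38.0, 33.0, 32.2 and 0.316 FPKM, a log2 difference of -4.89 between iPSCs and MEFs. Foxc2, which acts with it and in lymphatic vessels, was at 10.9, 9.99, 10.3 and 0.332 FPKM (-3.17). The first 3 libraries were alike in both genes and the iPSC library was far below them. Foxf1a, listed as Foxf1 in current annotation and known as a hedgehog target in the mesenchyme of lung and gut, was at 13.5, 10.1, 8.02 and 0.295 FPKM (-3.48), so each library was below the one before. Foxs1, known from pericytes and neural crest derivatives, was at 6.47, 5.73, 7.51 and 0.117 FPKM (-2.74). Its iPSC value was again the only low one.

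Pericyte markers stood beside Foxs1 and did not move as a group. Of 6 compared, 3 were lower in iPSCs than in MEFs and 2 higher, where 25.0% and 21.1% of all rows were so called. Of the 6, 1 passed the minimum level only through iPSCs and was higher. Another 2 passed it only through MEFs and were lower, so the counts are descriptions. The summed level of the 8 found was 81.8 FPKM in iPSCs and 141 in MEFs. The lower ones were Cspg4 with 0.0980 FPKM in iPSCs and 25.5 in MEFs, Pdgfrb with 2.02 and 60.4, and Rgs5 with 0.0297 and 17.4. The higher ones were Des, the muscle filament desmin, with 24.7 FPKM in iPSCs and 0.647 in MEFs, and Notch3 with 11.1 and 1.27. Mcam was within the rule at 43.8 and 35.7 FPKM. Kcnj8 and Abcc9 were under 0.1 FPKM in all libraries. The part of such cells in the Foxs1 values was not tested.

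The 3 Foxd genes split. Foxd1, a gene of kidney stroma and retina, was at 13.7, 12.6, 15.0 and 0.146 FPKM from MEFs to iPSCs (-3.68 between iPSCs and MEFs). Foxd2, a related gene of mesenchyme, was low throughout at 1.37, 1.18, 0.884 and 0.0832 FPKM (-1.13). Foxd3 ran the other way. It is needed for the epiblast and for neural crest, and was at 0.0187, 0.00789, 0.00486 and 3.06 FPKM (2.00). Neural crest markers were at hand for the other tissue in which Foxd3 is known. In iPSCs Sox10, Tfap2a, Tfap2b, Pax3 and Pax7 were all under 0.15 FPKM. Of the 4 crest markers compared 2 were higher than in MEFs (Erbb3 and Ngfr) and 2 lower (Snai2 and Ets1). Over all rows 21.1% were higher and 25.0% lower. Erbb3 and Ngfr passed the minimum level only through iPSCs and Snai2 only through MEFs, so the counts are descriptions. The 9 found summed to 11.9 FPKM in iPSCs and 29.2 in MEFs.

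The Foxp genes held the largest difference of the family. Foxp2, known from speech circuits of the brain and from lung epithelium, was at 50.9, 57.0, 33.8 and 0.0177 FPKM. The difference between iPSCs and MEFs was -5.67, and 0.758% of the rows compared had a larger one in either direction. Foxp1 was at 52.1, 62.6, 57.1 and 6.67 FPKM (-2.79). Its transcript is known to be spliced to another form in embryonic stem cells, and a value per gene does not separate the forms. Foxp4, the third of the group that acts in lung and heart, was within the rule at 11.7, 11.9, 10.2 and 7.62 FPKM (-0.56). The iPSC library was the lowest for all 3, by very different amounts. Foxp3, the gene of regulatory T cells, did not reach 0.2 FPKM in any library. Of the 7 lymphoid markers found, Il2ra, Ctla4, Cd4 and Cd8a were under 0.04 FPKM throughout. Above that level in MEFs lay Ikzf2 (4.02 FPKM), Ptprc (0.703) and Tnfrsf18 (0.665). For iPSCs the values of Ikzf2, Ptprc and Tnfrsf18 were 0.471, a listed 0 and 0.927 FPKM.

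Among the genes higher in iPSCs, Foxh1 reached the highest level of those near 0 before. Its protein binds SMAD2 and SMAD3 and carries the Nodal signal to DNA. Foxh1 was listed at 0 in MEFs, and its later values were 0.0208, 0.0385 and 19.2 FPKM, a log2 difference of 4.28 between iPSCs and day 6. The iPSC library alone was above 0.04 FPKM. Foxh1 overlaps Kifc2 in the reference annotation, and with no strand setting stated the reads of overlapping genes cannot be told apart. Kifc2 was at 2.90 FPKM in iPSCs and 0.659 in MEFs.

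Genes of the Nodal pathway were listed beside it. Of 13 genes of the Nodal list compared between iPSCs and MEFs, 9 were higher and 1 lower, with a median of 1.95, where 21.1% and 25.0% of all rows were so called. Of the 9, 7 passed the minimum level only through iPSCs, where they are high, so this count is a description. The co-receptor gene Tdgf1 was at 311 FPKM in iPSCs and 0.0643 in MEFs. The ligand genes Nodal and Gdf3 were at 15.3 and 15.7 FPKM in iPSCs and at 0.0280 and 0.0187 in MEFs. The receptor gene Acvr2b was at 8.97 FPKM in iPSCs and 0.313 in MEFs. Smad4, the shared partner of the SMADs, was at 31.2 and 33.3 FPKM. The gene called lower was Smad3, named after its value was seen, with 9.21 FPKM in iPSCs and 32.2 in MEFs. At day 3 and day 6 none of the 6 members compared with MEFs passed the rule. Tdgf1 is also among the pluripotent cell markers.

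The remaining iPSC genes of low level are those of other lineages. Foxa2, a pioneer factor of endoderm and floor plate, was at 0.242, 0.0565, 0.0411 and 2.42 FPKM (1.46 between iPSCs and MEFs). Its relatives Foxa1 and Foxa3 stayed under 0.5 FPKM in all libraries, with 0.137 and 0.484 FPKM in iPSCs. Foxj1, the master gene of motile cilia, was at 0.0661, 0.124, 0.0621 and 1.68 FPKM (1.33). Foxq1, a gene of hair and gut epithelium, was at 0.171, 0.261, 0.122 and 2.04 FPKM (1.38). For these 3 the iPSC library alone was above 0.3 FPKM, and in it they ranked between 14 and 17 among the 32 genes.

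Markers of the lineages in which FOXA2 and FOXJ1 are known were measured beside them. Of 6 endoderm markers compared between iPSCs and MEFs, 2 were higher and 1 lower, where 21.1% and 25.0% of all rows were so called. Of the 6, 4 passed the minimum level only through iPSCs and 1 only through MEFs, among them all those called. The 7 found summed to 80.6 FPKM in iPSCs and 8.0 in MEFs. Most of the iPSC sum was Cldn4, a claudin of many epithelia, with 61.7 FPKM against 0.0757 in MEFs, and Gata4 was at 8.74 against 0.00849. Afp, the fetal albumin relative, was at 0.0541 and 0.0651 FPKM. Of 7 ciliated cell markers compared, 2 were higher and 0 lower, beside the same shares of all rows. Of the 7, 4 passed the minimum level only through iPSCs, among them the 2 called. The counts of both lists are thus descriptions. The 10 ciliated markers found summed to 28.9 FPKM in iPSCs and 7.12 in MEFs. The higher ones were Rfx2, with 12.2 FPKM in iPSCs and 0.394 in MEFs, and the dynein gene Dnaic1, with 6.93 against a listed 0. Tekt4, Rsph4a and Hydin were under 0.2 FPKM in all libraries. The part of such cells in the Foxa2 and Foxj1 values was not tested.

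The Foxo genes were the largest group in iPSCs. Foxo3 was at 8.15, 9.65, 10.1 and 21.2 FPKM (1.28 between iPSCs and MEFs). Foxo4 was at 3.78, 4.89, 2.85 and 11.2 FPKM (1.35). Foxo6, a gene mainly of the brain, was at 0.0437, 0.0247, 0.0966 and 1.63 FPKM (1.33). Foxo1, reported as needed for pluripotency in human and mouse embryonic stem cells, was within the rule at 4.22, 5.17, 5.91 and 5.78 FPKM (0.38). In 3 of the 4 the iPSC library was the highest, and in Foxo1 it lay just below day 6.

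Regulators and targets of FOXO held genes on both sides. Of 23 regulators compared between iPSCs and MEFs, 3 were higher and 7 lower, with a median of -0.43, where 21.1% and 25.0% of all rows were higher and lower. The kinase genes Akt1, with 27.3 FPKM in iPSCs and 124 in MEFs, and Sgk1, with 64.0 and 370, were lower, and so was the PI3K subunit gene Pik3r1 with 4.34 and 49.1. Usp7, a deubiquitinase that acts on FOXO4, was higher with 129 FPKM in iPSCs and 40.6 in MEFs, and Pdpk1 was at 18.3 and 18.7. These are RNA levels, and FOXO activity is set mainly by phosphorylation. Of 28 FOXO targets compared, 5 were higher and 12 lower, with a median of -0.55, beside the same 21.1% and 25.0%. Of the 28, 1 passed the minimum level only through iPSCs and was higher, and 2 only through MEFs and were lower. The list does not separate genes that FOXO raises from genes that it lowers, so the counts are descriptions. Bnip3, a gene of mitophagy, was at 203 FPKM in iPSCs and 24.3 in MEFs. Lower were Ccnd2, cyclin D2, with 3.17 and 100 FPKM, Fbxo32, an atrophy gene, with 0.906 and 13.7, and Klf6 with 18.4 and 114. Gadd45a was at 29.0 and 29.7 FPKM.

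Foxm1 was at 9.12, 12.5, 12.3 and 19.0 FPKM. The iPSC value was the highest and the MEF value the lowest. The difference of 0.98 between iPSCs and MEFs lay just under the rule as deposited, and at 1.03 to 1.16 it lay past it under each of the 3 rescalings. Its targets of G2 and mitosis were higher in iPSCs in 19 of 23 genes and lower in 1, with a median of 2.01, where 21.1% of all rows were higher and 25.0% lower. Bub1b, a spindle checkpoint kinase, was at 105 FPKM in iPSCs and 12.0 in MEFs, Top2a at 460 and 60.8, Ccnb1, cyclin B1, at 182 and 25.6, and Ccnb2 at 160 and 25.4. Stmn1 was at 50.1 and 30.4 FPKM. The gene called lower was Cenpb, named after its value was seen, with 7.44 FPKM in iPSCs and 36.6 in MEFs. A further list held 12 genes of the MuvB core, B-Myb and the DREAM repressor, which act at the same cell cycle genes. Of these 3 were higher, near the share of all rows, and 1 was lower, under that share. Their median was 0.53, with 10 differences positive and 2 negative. MuvB and B-Myb recruit FOXM1, while the E2F, DP and pocket protein subunits belong to the repressor. Mybl2, or B-Myb, was at 94.5 FPKM in iPSCs and 2.28 in MEFs, E2f5 at 21.4 and 6.75, Rbbp4 at 142 and 68.9, Rbl2, which was lower, at 5.72 and 14.3, and Tfdp1 at 41.9 and 42.0.

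**Figure D4:**
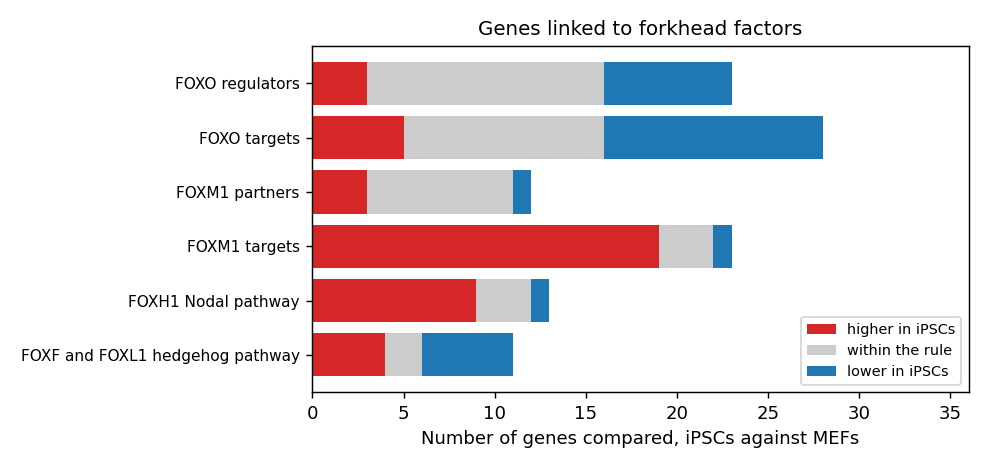
Number of genes higher in iPSCs (red), within the rule (grey) and lower in iPSCs (blue) against MEFs, 1 library each, for 6 lists of genes linked to forkhead factors. Bars start at 0. The FOXM1 target bar is mostly red (19 of 23) and the FOXO target bar holds more blue (12) than red (5).

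The hedgehog list, upstream of Foxf1 and Foxl1, was mixed. Of 11 genes compared between iPSCs and MEFs, 4 were higher and 5 lower, with a median of -0.49, where 21.1% and 25.0% of all rows were so called. Of the 4, 3 passed the minimum level only through iPSCs. The transducer gene Smo was at 6.59 FPKM in iPSCs and 46.6 in MEFs, the co-receptor gene Boc at 1.22 and 9.38, and Disp1, which releases the ligand, at 1.31 and 7.96. Gli1, itself a hedgehog target, was at 2.26 FPKM in iPSCs and 0.0357 in MEFs. The co-receptor gene Cdon was at 12.5 FPKM in iPSCs and 9.97 in MEFs. Foxf1a and Gli1 thus lay on opposite sides of the rule. Foxf1a passed the minimum level only through MEFs and Gli1 only through iPSCs, so this is a description. Ptch1, named after its value was seen, was higher and passed the minimum in both, with 16.4 FPKM in iPSCs and 5.28 in MEFs.

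The genes within the rule between iPSCs and MEFs were mostly those of general regulators. Foxk2, which binds at metabolic genes and recruits the deubiquitinase BAP1, was at 30.3, 26.5, 26.4 and 28.6 FPKM from MEFs to iPSCs (-0.08). Its relative Foxk1 was at 4.17, 5.62, 5.26 and 1.94 FPKM. Foxk1 was -0.81 between iPSCs and MEFs, within the rule, and -1.09 between iPSCs and day 6, past it. Foxj3 was at 15.9, 18.2, 17.5 and 16.3 FPKM (0.04), the smallest difference among the 25 genes compared. Foxj2 was at 5.60, 6.26, 5.65 and 2.42 FPKM (-0.95), just under the rule. Foxn3, a repressor linked to the DNA damage checkpoint, was at 25.6, 21.5, 23.3 and 21.5 FPKM (-0.24), and Foxn2 at 9.45, 10.0, 9.98 and 11.5 (0.26). In Foxk2, Foxj3, Foxn2 and Foxn3 no library stood apart from the other 3.

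Against day 6 in place of MEFs, 24 members were compared and 7 were higher and 8 lower in iPSCs. The background was 20.4% of rows higher and 23.4% lower. Foxo3 left the higher group with 21.2 FPKM in iPSCs and 10.1 at day 6, a difference of just under 1.00. Foxd2, with less than 1 FPKM in both libraries, was no longer compared, and Foxk1 joined the lower group. These comparisons share the iPSC library.

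During the first 6 days no forkhead gene passed the rule. Of 19 compared, 0 were higher and 0 lower at day 3 against MEFs, at day 6 against day 3 and at day 6 against MEFs. The background was 0.170% higher and 0.0511% lower at day 3 against MEFs, 0.457% and 0.398% at day 6 against day 3, and 0.770% and 0.584% at day 6 against MEFs, so a count of 0 is near it. At day 3 the median difference from MEFs was 0.08 over the members and -0.02 over all rows.

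Some early differences were larger than those of most rows. Those given here with a share of rows are the most extreme of the 19 genes over the early contrasts. A small share is thus no sign of a change by itself. Most of them also rest on the day 3 library, which by the rough estimate above had the fewest fragments. Foxp2 had 33.8 FPKM on day 6 against 57.0 on day 3, a difference of -0.74, and 2.26% of rows had a larger one in either direction. Foxo4 had 2.85 FPKM on day 6 against 4.89 on day 3 (-0.61, with 3.99% of rows larger). Both were above their MEF value at day 3 and below it at day 6, as was Foxp4 by less (0.02 and -0.19). Foxf1a differed by -0.68 between day 6 and MEFs, with 3.87% of rows larger. Foxm1 was 0.42 above MEFs at day 3, with 4.55% of rows larger, and 0.40 above at day 6. The FOXM1 targets were above MEFs at day 3 in 21 of 23 genes, by a median of 0.08, and at day 6 also in 21, by a median of 0.30. None was past the rule. The robust SD of the difference from MEFs was 0.147 at day 3 and 0.218 at day 6, and the median over all rows -0.02 on both days. The share of all rows above MEFs is not given here. These targets belong to the same phases of the cell cycle, so their number is not repeated support. Foxk1 and Foxo1 were also above MEFs on both days, by 0.36 and 0.24 at day 3 and by 0.28 and 0.41 at day 6. So were Foxo3 (0.22 at day 3 and 0.28 at day 6), Foxp1 (0.26 and 0.13), Foxj3, Foxn2 and Foxj2. Foxf1a, Foxc1 (-0.20 and -0.23), Foxc2 (-0.12 and -0.08) and Foxd2 (-0.12 and -0.33) were below MEFs on both days. Foxn3 (-0.24 and -0.13) and Foxk2 (-0.18 and -0.19) were below as well. Of the 19 genes, 11 were above MEFs and 8 below at day 3, and 10 above and 9 below at day 6. The iPSC genes Foxh1, Foxd3, Foxa2, Foxj1, Foxq1 and Foxo6 had not reached 0.3 FPKM by day 6.

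**Figure D5:**
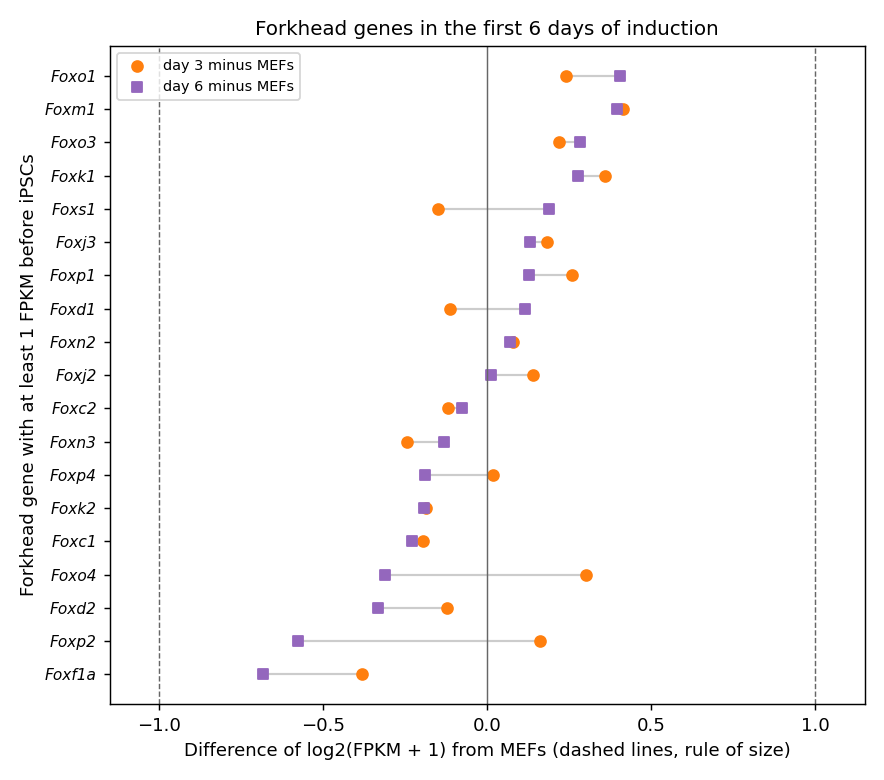
Difference of log2(FPKM + 1) from MEFs at day 3 (circles) and day 6 (squares), 1 library each, for the 19 forkhead genes with at least 1 FPKM in MEFs, at day 3 or at day 6. Dashed lines mark the rule of size at 1 and -1. All points lie between them, from -0.68 (Foxf1a, day 6) to 0.42 (Foxm1, day 3). Foxp2, Foxo4, Foxp4, Foxd1 and Foxs1 have their days on opposite sides of 0.

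Several forkhead genes lie next to each other in the reference annotation (GRCm38, from which no gene coordinates are used here), and neighbours did not always share a pattern. On chromosome 13 Foxq1, Foxf2 and Foxc1 follow each other with no other coding gene between them. Of these, Foxc1 was at 0.316 FPKM in iPSCs and 38.0 in MEFs, Foxq1 at 2.04 and 0.171, and Foxf2 at 0.202 and 0.618. On chromosome 8 Foxf1 and Foxc2, with Mthfsd between them, were both lower in iPSCs, and Mthfsd, a gene of folate metabolism, was at 9.50 FPKM in iPSCs and 22.6 in MEFs (-1.17). Next to each other on chromosome 4 are Foxd2 and the lens gene Foxe3, which was at 0.0373 FPKM at day 3 and listed at 0 in the other libraries. Foxj2 is the coding neighbour of Slc2a3 and Nanog on chromosome 6. There it was at 2.42 FPKM in iPSCs and 5.60 in MEFs, while Slc2a3, a glucose transporter gene, was at 866 and 1.75 and Nanog at 171 and 0.398.

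Start sites of the family were mostly rich in CpG, the dinucleotide at which DNA is methylated. RefSeq promoter sequences (GRCm38.p6, 250 bases before to 50 after the start) were matched for 19 of the 32 genes, with 24 start sites. The median number of CpG was 24.0 per start site in these and 7 over all 32841 promoters of the table, and the median GC content 63.5% and 52.7%. Genes of every pattern were among the rich ones. The count was 32 for Foxc1, lower in iPSCs, 25 for Foxd3, higher in iPSCs, and 59 for Foxk2, which was within the rule. It was 6 for Foxn3 and 8 for Foxn1, the gene of the thymus and of the nude mouse, which stayed under 0.15 FPKM. Among other genes under 1 FPKM in all libraries it was 27 for Foxf2, 26 for Foxa1, 22 for Foxa3 and 10 for Foxe3. The start sites of Foxp3, also such a gene, had 6 and 8. Foxp1 had 3 start sites with 13, 5 and 44, and a value per gene does not say which was used. The 200 bases before the start are shown for a gene high only in the first 3 libraries, a gene high only in iPSCs and a gene low in all, with CpG in capitals. They lie at chr13:31806446-31806645 on the plus strand (Foxc1, 20 CpG), chr4:99656099-99656298 on the plus strand (Foxd3, 13 CpG) and chrX:7579476-7579675 on the plus strand (first start site of Foxp3, 5 CpG).
Foxc1: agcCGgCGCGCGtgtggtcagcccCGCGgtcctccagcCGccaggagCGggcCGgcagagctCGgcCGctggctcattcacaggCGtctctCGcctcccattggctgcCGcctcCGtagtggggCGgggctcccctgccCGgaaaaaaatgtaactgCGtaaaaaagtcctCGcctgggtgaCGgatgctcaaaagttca
Foxd3: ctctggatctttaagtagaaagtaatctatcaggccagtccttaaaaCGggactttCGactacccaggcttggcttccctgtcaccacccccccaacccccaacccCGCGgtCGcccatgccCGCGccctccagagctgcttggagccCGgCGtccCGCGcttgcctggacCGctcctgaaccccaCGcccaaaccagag
Foxp3: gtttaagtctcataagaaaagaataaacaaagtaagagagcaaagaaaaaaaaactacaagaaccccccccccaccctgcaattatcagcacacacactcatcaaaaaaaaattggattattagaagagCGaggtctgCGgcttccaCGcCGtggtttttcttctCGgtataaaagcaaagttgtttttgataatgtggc

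Short motifs were searched on both strands of the 300 bases. The forkhead core TGTTTAC was found at 1 of the 24 start sites, that of Foxa1, where 3.65% of all promoters held it. The octamer ATTTGCAT, bound by OCT4, was found at 0 of 24 (1.74% of all promoters), the E-box CACGTG of the MYC family at 1, that of Foxd3 (7.15%), and TATAAA at 3 (13.6%). A match is a run of letters and not a bound site.

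The 7 genes under 1 FPKM in all libraries included Foxa1, Foxa3, Foxe3, Foxf2, Foxn1 and Foxp3. Their highest values ranged from 0.0373 FPKM (Foxe3) to 0.713 (Foxf2). For the marker counts that follow, 21.1% of all rows were higher in iPSCs than in MEFs and 25.0% lower, and the counts are descriptions. Of 4 neural progenitor markers compared between iPSCs and MEFs, 1 was higher and 1 lower. The higher was Otx2, also known from the early epiblast, with 16.9 FPKM in iPSCs and 0.0119 in MEFs, which passed the minimum level only through iPSCs. The lower was Nes, with 4.87 and 16.9. Of 4 endothelial markers, 3 were higher and 0 lower, and of these 2 libraries the 3 passed the minimum level only through iPSCs. Pecam1, which mouse pluripotent cells also carry, was at 26.2 FPKM in iPSCs and 0.0398 in MEFs. Vwf was at 2.61 and 0.0189, and Tek at 2.45 and 0.262. Tek was at 2.06 FPKM at day 6 and was called higher there too. Cdh5, not among the 4, was at 0.202 FPKM in iPSCs and 0.0168 in MEFs. Of 7 macrophage markers 1 was higher and 5 were lower, and the 5 passed the minimum level only through MEFs. The 8 found summed to 51.4 FPKM in iPSCs and 80.8 in MEFs. Most of the iPSC sum was the higher gene, Laptm5, with 38.5 FPKM against 4.31 in MEFs, and most of the MEF sum was Lyz2, with 0.0298 FPKM in iPSCs and 52.9 in MEFs. Of 7 lymphoid markers found 1 was compared, Ikzf2, which passed only through MEFs and was lower with 0.471 FPKM in iPSCs and 4.02 in MEFs.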

How the data were processed

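The deposited table holds 1 FPKM value per gene and stage, per the file headers. The headers carry the letters rep, and whether a value is 1 library or a mean of several is not stated. The submitters' processing notes list HISAT2, Cufflinks and build mm9 without versions. The sources used here give no gene models, filters, strand setting or pooling. The authors' small RNA libraries (4 samples) were not used here.

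Differences were computed as log2(FPKM + 1) with Python 3.11.15, pandas 2.3.3 and numpy 2.4.6, in 5 contrasts. A call needed a difference of at least 1 and a higher value of at least 1 FPKM, and the background is the share of all rows so called. The calling step was tested on simulated data. Each member that reached 1 FPKM is named, and 1 other member and 1 list gene are not reported here. From each of 16 gene lists, the up to 4 called genes with the largest difference between iPSCs and MEFs, the gene with the smallest, and Nodal, Akt1, Ccnb1 and Gli1 may be named, and other list genes are named for low levels or as the few called. A symbol on several rows was represented by its highest row. Members and lists were chosen with earlier results of these data known. All 32 members matched a current gene name by identifier. The alternatives were 2 pseudocounts, a larger difference, 2 minimum levels and 3 rescalings.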

Additional observations from a re-analysis of the deposited data

How the results depend on the processing

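No paired analysis was possible because a stage has 1 column of values, which also means that no replicate could be left out. Calls of forkhead genes were recomputed under 8 alternatives in 5 contrasts. Of 1000 gene results, 950 kept their call, 39 lost it and 11 gained it, and none turned its direction while called. Counts over all rows, lists and summed levels under the alternatives were added after seeing the data.

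The higher group in iPSCs rested mostly on weakly expressed genes, and otherwise on differences not far past the rule. Foxo3 and Foxo4, at 21.2 and 11.2 FPKM in iPSCs, differed from MEFs by 1.28 and 1.35. Against MEFs (8 higher) the higher group held 1 gene with a pseudocount of 5 and 1 with a log2 difference of at least 2. It held 3 with a higher value of at least 5 FPKM. Against day 6 (7 higher) it held 2, 2 and 2 under the same settings. The lower groups stayed within 1.5 times their counts. By library of the highest value, among genes whose range was at least 1, there were 4 genes for MEFs, 4 for day 3, 2 for day 6 and 8 for iPSCs. The pseudocount of 5 and the log2 difference of 2 each gave 2 for day 3 and 2 for iPSCs, and the minimum of 5 FPKM gave 3 for iPSCs. The cause was not tested beyond what these settings remove.

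Under rescaling to the same upper quartile the median of all rows between iPSCs and MEFs was 0.13 in place of -0.05, and that of the forkhead genes 0.10 in place of -0.08. The 6 forkhead results that changed under the 3 rescalings were Foxm1 against MEFs and Foxo3 against day 6, both then higher in iPSCs.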
